A study of Mus musculus with 4 samples.

Results

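The cells described here are Ackr4/Grem1 fibroblasts of the mouse colon, 2000 of 38852 cells that passed the filters. A cell was kept with at least 200 detected genes and at most 25% mitochondrial counts. A fibroblast had counts of at least 3 of the 7 genes Col1a1, Col1a2, Col3a1, Dcn, Lum, Pdgfra and Dpt and no count of Ptprc, Epcam, Pecam1 or Myh11, and 7805 cells met this. Of these, the Ackr4/Grem1 cells were those in which the summed counts of Ackr4, Inmt, Cilp, Grem1 and Gdf10 (sum C) reached 2 and were larger than each of 2 other sums. Those sums were Adamdec1, Tnc, Tcf21, Postn and Bmp4 (sum A), and Pi16, Has1, Mfap5, Cd248 and Scara5 (sum B). Cells led by sum A are called Adamdec1 fibroblasts below (3703 cells) and cells led by sum B Pi16 fibroblasts (1780 cells). Since measured counts of these genes chose the members, their levels and every difference between the 3 classes are given as a description, with no test.

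Fibroblasts of the gut wall support the epithelium according to where they lie. Cells below the crypt base that carry Grem1 and Ackr4 are known in mice as a source of signals that keep crypt stem cells dividing. Gremlin 1, the product of Grem1, binds bone morphogenetic proteins (BMPs) and keeps them from their receptors, which lets Wnt and R-spondin signals act on the stem cells. Ackr4 encodes an atypical receptor that takes up and degrades the chemokines CCL19, CCL21 and CCL25 without activating G proteins.

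Colon tissue was dissociated enzymatically and single cells were sequenced in droplets, with 2 libraries from mice given carbon tetrachloride (CCl4) and 2 from control mice. CCl4 is a solvent that injures the liver and is used to bring on cirrhosis in rodents. Per the labels, the CCl4 mice were specific pathogen free, were 6 weeks old when treatment began and were treated over 6 weeks, while age and duration are not given in the labels of the control libraries. Neither the state of the liver nor the position of a cell in the wall was measured, so cirrhosis and a place in the submucosa are not shown here.

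The CCl4 libraries gave 420 and 337 member cells with 2079649 and 1519629 counts, and the control libraries gave 634 and 609 cells with 2892181 and 2927581 counts. The median member had 4573.5 and 4261 counts in the CCl4 libraries, against 3988 and 4593 in the control libraries. Its median mitochondrial share was 2.91% and 2.70% in CCl4, against 2.37% and 2.46% in control. Whether each library is from its own animal is not stated in the labels, so p-values below rest on library-to-library spread, and this may be technical. Between 8 and 26 members of any 2 libraries carried the same barcode name, and 0 of them had the same profile.

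Cilp carried the largest part of the sum that chose the members. Cilp encodes an extracellular matrix protein first known from cartilage, and it made up 44.9% of all sum C counts in the members. It was detected in 95.7% and 95.8% of CCl4 members and in 93.4% and 92.6% of control members. Ackr4 was detected in 70.2% and 60.2% of CCl4 members, against 68.8% and 74.1% of control members. Grem1 was detected in 64.8% and 61.4% of CCl4 members, against 61.2% and 67.2% of control members. Inmt, which encodes a methyltransferase of small amines, was found in 33.4% to 36.6% of members by library, and Gdf10, which encodes a ligand of the BMP family, in 27.9% to 31.8%. In epithelial cells of the same libraries, which should lack these genes and were picked with no count of the 7 fibroblast genes, each of the 5 was found in 1.42% of cells at most, at a median depth of 6037 to 6765.5 counts per cell against 3988 to 4593 in the members. Cells picked in this way may understate the free fibroblast RNA, and the members were chosen by these genes, so the gap is no test of expression. Other fibroblasts carried some of the 5 genes widely. By library, Ackr4 was found in 42.6% to 50.2% and Cilp in 61.2% to 66.0% of Pi16 fibroblasts. Grem1 was found in 28.0% to 33.8% of Adamdec1 fibroblasts. Ackr4 was rarer in Adamdec1 fibroblasts, at 3.59% to 5.88%, and Inmt in Pi16 fibroblasts, at 7.17% to 7.52%.

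The members were not uniform in the genes that chose them. Of the 2000 cells, 143 had counts of 1 of the 5 genes, 519 of 2, 813 of 3, 421 of 4 and 104 of all 5. Grem1 was found in 67.9% of members with a count of Ackr4 and in 54.6% of members without one. Gdf10 showed the opposite pattern: it was found in 24.04% of members with Ackr4 and in 40.8% of members without it. Gdf10 and Inmt went together, since Gdf10 was found in 40.8% of members with Inmt and in 22.96% of those without.

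Most members also carried counts of the genes that mark the other classes, and only 74 of 2000 had sums A and B both at 0. Pi16, which encodes a peptidase inhibitor and marks fibroblasts around vessels, was detected in 36.4% and 30.9% of CCl4 members and in 26.3% and 26.8% of control members. Postn, a matrix protein gene, was found in 52.2% to 63.3% of members and Bmp4 in 52.2% to 59.9%. Adamdec1, which encodes a secreted protease-like protein of lamina propria fibroblasts, was found in 4.05% to 5.99% of members and in 3.92% to 4.79% of those epithelial cells, and the rule itself held its count below sum C in the members. At the edge of the rule, 33 members had a sum C of 2 and 157 led the larger of the other sums by 1 count. Just outside it, 16 cells had a sum C of 1, 134 cells had a tie, and 149 cells fell 1 count short. The median sum C of the members was 17, and the range was 2 to 153.

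Of the 5 genes of sum C, Ackr4 and Grem1 stood lower and Cilp higher in CCl4, as a description. Ackr4 was at 736 and 571 CPM (a gene's counts summed over the class, scaled to the class's total counts in that library) in CCl4 members, against 900.0 and 1016 CPM in control members. Its gene lies on chromosome 9 (GRCm38, 104084157 to 104126933, minus strand). Grem1 was at 868 and 936 CPM in CCl4 members, against 1066 and 1273 CPM in control members. Grem1 lies on chromosome 2 (GRCm38, 113746164 to 113758646, minus strand). Cilp was at 2104 and 2200 CPM in CCl4 members, against 2009 and 1713 CPM in control members. For these 3 genes the 2 groups of libraries did not overlap, which was also so for 18% of all tested genes with CCl4 higher and 18.9% with CCl4 lower. Inmt, at 286 and 353 CPM in CCl4 against 284 and 338 CPM in control, and Gdf10, at 199 and 182 CPM in CCl4 against 185 and 194 CPM in control, did overlap.

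Outside the rule, 25 genes stood highest in the members over both other classes in all 4 libraries, chosen by the smallest of their 4 library ratios among genes of at least 50 CPM. Stc2, which encodes the secreted glycoprotein stanniocalcin 2, led them. It was at 373 and 383 CPM in CCl4 members and 393 and 450 CPM in control members. It was at 31.5 to 52.5 CPM in Adamdec1 fibroblasts and 37.1 to 41.9 CPM in Pi16 fibroblasts, so no library of another class came near the members. Penk, which encodes the opioid peptide precursor proenkephalin, was at 473 to 540 CPM in the members, against 32.8 to 58.0 CPM in Adamdec1 and 166 to 212 CPM in Pi16 fibroblasts.

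Several of the other genes encode receptors and ligand-binding proteins. Prlr, the prolactin receptor gene, was at 66.4 to 87.5 CPM in the members, against 7.64 to 14.6 CPM in Adamdec1 and 20.1 to 33.5 CPM in Pi16 fibroblasts. Lepr, the leptin receptor gene, was at 363 to 406 CPM in the members, against 205 to 218 CPM in Adamdec1 and 146 to 184 CPM in Pi16 fibroblasts. Adcyap1r1 encodes the receptor of the neuropeptide PACAP, and Gas1 a coreceptor for hedgehog proteins that was at 219 to 263 CPM in the members, against 18.5 to 26.8 CPM in Adamdec1 and 125 to 155 CPM in Pi16 fibroblasts. Among matrix genes, Mgp, whose product inhibits calcification, was at 3359 to 4230.0 CPM in the members, against 1580.1 to 1885 CPM in Adamdec1 and 1472 to 1792 CPM in Pi16 fibroblasts, and Spon2, Smoc2 and Thbs2 were also on the list.

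Enzymes and transporters made up much of the rest. Fmo2, a flavin monooxygenase gene, was at 801 to 861 CPM in the members, against 125 to 184 CPM in Adamdec1 and 292 to 370 CPM in Pi16 fibroblasts. Aoc3 (an amine oxidase), Dpep1 (a membrane dipeptidase), Cyp27a1 (a sterol hydroxylase), Gsta3 (a glutathione transferase), Slc10a6 (a carrier of sulfated steroids), Abca8a (a lipid carrier), Pcsk5 (a proprotein convertase), Plpp1 (a lipid phosphatase) and Galnt15 (a glycosyltransferase) were on the list. Lgi2, Gpnmb, Cgnl1, Dner and Pid1 completed it. None of the 25 was called between CCl4 and control members in the comparison described below, and their log2 ratios lay between -0.62 for Galnt15 and 0.29 for Gpnmb.

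**Figure D1:**
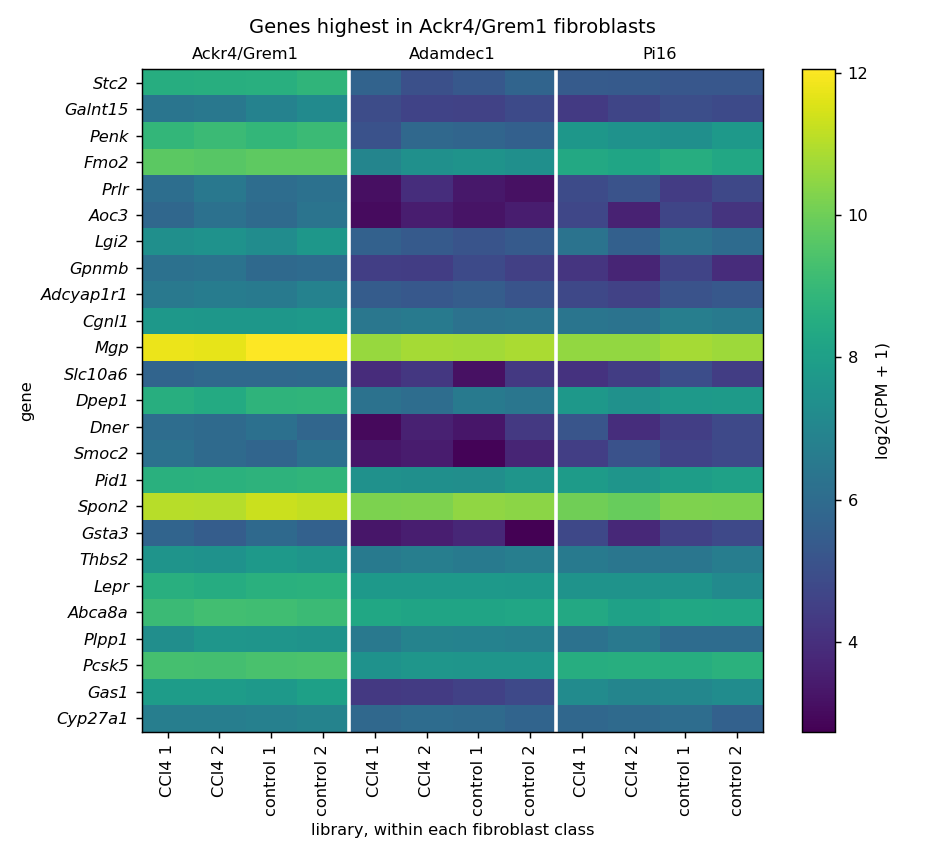
Levels of the 25 genes outside the rule that stood highest in Ackr4/Grem1 fibroblasts, as log2(CPM + 1), with genes in rows and the 4 libraries of each of 3 fibroblast classes in columns. All 4 libraries of the Ackr4/Grem1 class are brighter than any library of the other classes in each row, for example 373 to 450 CPM against at most 52.5 CPM for Stc2.

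Genes that other work ties to crypt-supporting fibroblasts were shared between classes in differing ways. A list of 12 genes of such cells summed to 6569 to 7233 CPM in the members by library. Its sum was 6585 to 7440 CPM in Pi16 and 3042 to 3339 CPM in Adamdec1 fibroblasts, so it did not set the members apart from Pi16 fibroblasts. Rspo3, the gene of an R-spondin that strengthens Wnt signals, was at 59.6 to 83.0 CPM in the members, against 20.02 to 29.5 CPM in Adamdec1 and 43.1 to 57.5 CPM in Pi16 fibroblasts. Wnt2b, a Wnt ligand gene, was lower in the members, at 14.9 to 25.6 CPM against 41.5 to 56.2 CPM in Adamdec1 fibroblasts. Cd81, a tetraspanin gene used to sort such cells, was at 247 to 274 CPM in the members and 242 to 309 CPM in Pi16 fibroblasts, against 45.6 to 64.3 CPM in Adamdec1 fibroblasts. The Wnt inhibitor genes Sfrp1 and Dkk3 were higher in Adamdec1 fibroblasts, at 1101 to 1241 CPM for Sfrp1 and 455 to 479 CPM for Dkk3, than in the members, at 901 to 1010 CPM and 221 to 268 CPM. Foxl1, which marks telocytes at the epithelial border, had 2 counts in the members of all 4 libraries together, both in CCl4 library 1, against 12.2 to 17.4 CPM in Adamdec1 fibroblasts.

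The members fell into 6 clusters when clustered among themselves, with the 62 genes called for an effect of CCl4 in the members, or for a difference in it from another class, left out of the clustering. A cluster's leading genes are given to say which cells it holds and were not tested. Cluster 1 (754 cells) led with Has1, Ncam1, Lepr and Sema3c and held Rspo3 at 87.8 to 115 CPM by library, a range that overlaps the 82.6 to 108 CPM of cluster 2 and lies above the 18.5 to 21.2 CPM of cluster 3. Cluster 2 (584 cells) was shallow, with a median of 2528 counts per cell against 5424.5 in cluster 1, and led with Iglc3, at 52.4 CPM against 21.9 CPM in the other members, followed by Trpc4ap and Klhl33. Cluster 3 (278 cells) led with Apod, Ptn, Fxyd6 and Serpine2. Its cells held Gdf10 at 371 to 656 CPM by library, against 86.5 to 114 CPM in cluster 1. They held Grem1 at 209 to 351 CPM, against 1122 to 1521 CPM in cluster 1.

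Cluster 4 (178 cells) led with C1qtnf3, at 1987 to 2284 CPM by library against 375 to 409 CPM in cluster 1, and with Tnc, Fgl2 and Kitl, the gene of stem cell factor. Cluster 5 (168 cells) led with the noncoding transcript Gm26561, the mitochondrial leucyl-tRNA synthetase gene Lars2 and the kinase genes Cdk8 and Camk1d. Cluster 6 (38 cells) led with the immunoglobulin genes Igha, Igkc and Jchain and with the macrophage genes Lyz2, Cd74 and C1qa, which go against the name fibroblast. Iglc3, Jchain and Ly6c2 are given below with and without its cells. The sums of immune markers and the differences between classes are given with them only.

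Cluster 2 made up 21.4% and 23.7% of CCl4 members, against 38.5% and 27.9% of control members. Cluster 3 made up 17.9% and 15.1% of CCl4 members, against 11.0% and 13.5% of control members. Cluster 4 made up 10.5% and 10.7% of CCl4 members, against 8.52% and 7.22% of control members. Cluster 5 made up 9.29% and 9.20% of CCl4 members, against 7.10% and 8.70% of control members. In each of these 4 clusters the CCl4 libraries lay on 1 side of the control libraries, but the exact 95% binomial interval of at least 1 CCl4 library overlapped that of a control library. These intervals cover counting error only. Shares of clusters 1 and 6 overlapped between the groups.

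**Figure D2:**
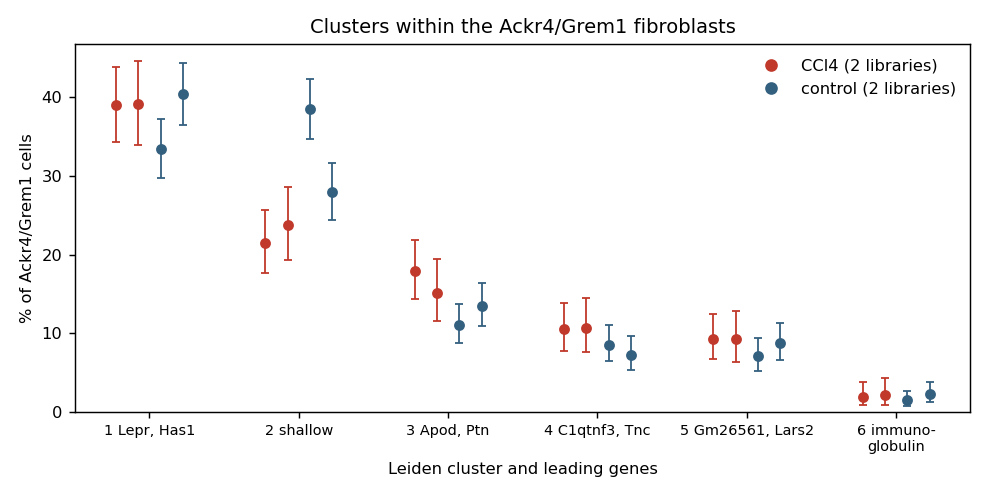
Share of each library's Ackr4/Grem1 cells in 6 clusters, in percent, with 1 point per library and exact 95% binomial intervals. Cluster 2, the shallow one, holds 21.4% and 23.7% of CCl4 cells against 38.5% and 27.9% of control cells, and cluster 3 holds 17.9% and 15.1% against 11.0% and 13.5%.

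Ackr4/Grem1 fibroblasts made up a smaller share of the cells recovered from CCl4 colon. They were 3.803% and 3.24% of kept cells in the CCl4 libraries, against 7.35% and 6.94% in the control libraries. The exact 95% binomial intervals of single libraries did not overlap between the groups. Such intervals cover the counting error of cells only and are no test of CCl4. The means were 3.52% ± 0.401 in CCl4 and 7.15% ± 0.291 in control (SD, n = 2 each), a ratio of 0.492. The exact permutation test of 2 against 2 libraries gave p = 0.333, two-sided, which is the smallest it allows. All fibroblasts together were also a smaller share, at 1857 of 11045 and 1653 of 10416 kept cells in CCl4. In control they were 2157 of 8620 and 2138 of 8771. The same held for Adamdec1 fibroblasts (946 and 882 cells in CCl4, 940 and 935 in control) and Pi16 fibroblasts (412 and 371, against 495 and 502). In the same libraries epithelial cells took a larger share: a count of Epcam was found in 43.5% and 42.7% of kept CCl4 cells and in 27.4% and 27.1% of kept control cells. A share of recovered cells also moves with how well each cell type is released and kept, and the filters removed 21.0% and 16.4% of CCl4 barcodes against 14.0% and 12.6% of control barcodes.

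The share was smaller within the fibroblasts as well. Ackr4/Grem1 cells were 22.6% and 20.4% of fibroblasts in CCl4, against 29.4% and 28.5% in control. The means were 21.5% ± 1.58 in CCl4 and 28.9% ± 0.642 in control (SD, n = 2 each, exact permutation p = 0.333). Adamdec1 fibroblasts were 52.2% ± 1.71 of fibroblasts in CCl4 and 43.7% ± 0.109 in control, and Pi16 fibroblasts 22.3% ± 0.182 in CCl4 and 23.2% ± 0.376 in control. Shares of 1 whole move together, so a rise in one class alone would lower the others. When each cell was thinned to 1000 counts, Ackr4/Grem1 cells were 18.7% ± 1.75 of fibroblasts in CCl4 and 24.2% ± 1.41 in control, and no cell had to be left out as too shallow. The members were picked by counts that include Ackr4 and Grem1, both lower in CCl4 members, and the part of this in the share was not tested.

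**Figure D3:**
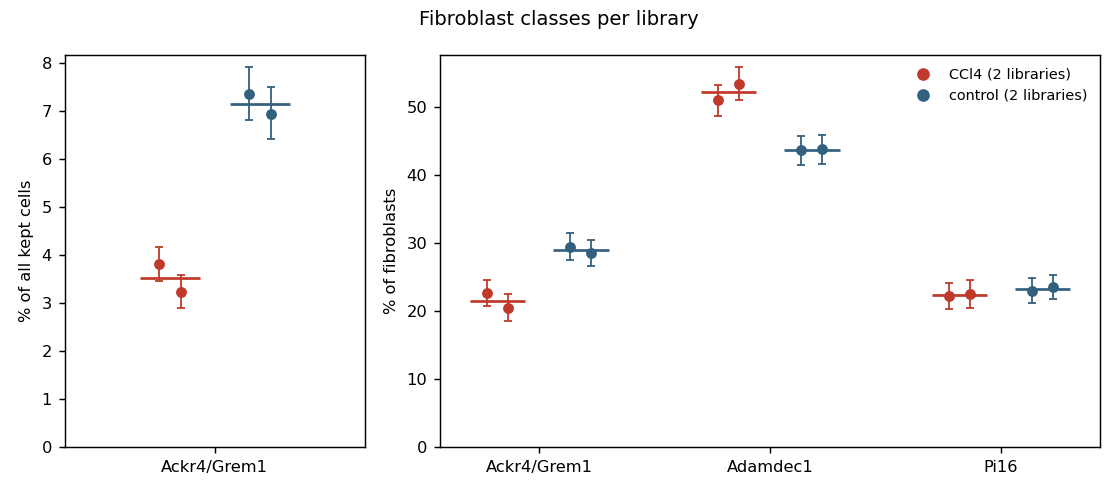
Share of Ackr4/Grem1 cells among all kept cells (left) and of 3 fibroblast classes among fibroblasts (right), in percent. Points are libraries with exact 95% binomial intervals and bars are means of 2 libraries. Ackr4/Grem1 cells are lower in both CCl4 libraries on both scales, at 22.6% and 20.4% of fibroblasts against 29.4% and 28.5%, while Adamdec1 cells are higher.

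Between CCl4 and control members, 44 of 11691 genes were called by edgeR's quasi-likelihood test on counts summed per library, at an adjusted p under 0.05. This is 0.376% of the genes tested, with 32 higher in CCl4 (0.274%) and 12 lower (0.103%). At an unadjusted p under 0.05 there were 906 genes. The median log2 ratio of CCl4 over control over all tested genes was -0.00401, near 0 as the scaling sets it. The 12 lower genes were 6 of the endoplasmic reticulum (ER) chaperone list, the immunoglobulin genes Iglc3, Iglv1 and Jchain, Ly6c2, Mmp3 and Ackr4. Ackr4 is in this count because the test ran over all genes, but it chose the members, so nothing is read from its call. The 32 higher genes include Dbp and Nr1d1, a few genes such as Apod and Thbs1, and 6 genes of the list of epithelial markers.

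**Figure D4:**
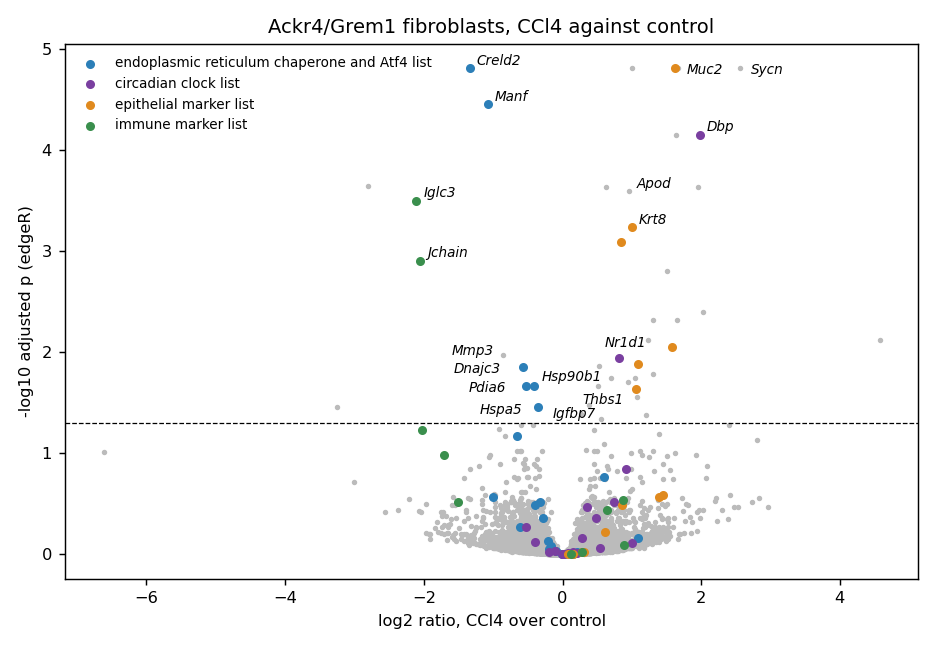
Each of 11691 tested genes in Ackr4/Grem1 fibroblasts by its log2 ratio of CCl4 over control (x) and the -log10 of its edgeR adjusted p (y), with 4 gene lists coloured and the dashed line at an adjusted p of 0.05. Chaperone genes past the line lie on the left, led by Creld2 at -1.34, and epithelial genes such as Muc2 at 1.63 and the clock gene Dbp at 1.98 lie on the right.

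Genes of 6 ER chaperones and related ER proteins fell in CCl4 members. Of 26 listed genes for ER chaperones and targets of the stress factor Atf4, 24 were tested. Of these, 6 were called lower and 0 higher, beside 0.103% of all genes called lower. The log2 ratio was below 0 for 17 of the 24 and above 0 for 7, the highest at 1.09. The list's median log2 ratio was -0.24, beside -0.00401 for all genes. Creld2, an ER-resident protein gene induced by unfolded proteins, was at 61.5 and 67.8 CPM in CCl4 members, against 159 and 167 CPM in control members. Its log2 ratio was -1.34 (SE 0.146, edgeR adjusted p = 1.55e-05). Manf, whose product is kept in the ER and secreted under stress, was at 136 and 176 CPM in CCl4, against 319 and 337 CPM in control (log2 ratio -1.08, SE 0.126, adjusted p = 3.54e-05). For both genes the 2 CCl4 libraries lay far below the 2 control libraries.

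The folding machinery itself moved less. Dnajc3, a cochaperone of BiP, was at 236 and 259 CPM in CCl4 and 353 and 383 CPM in control (log2 ratio -0.58, SE 0.111, edgeR adjusted p = 0.014). Pdia6, a disulfide isomerase, was at 345 and 396 CPM in CCl4 and 512 and 553 CPM in control (-0.53, SE 0.106, adjusted p = 0.0216). Hsp90b1, the ER form of HSP90, was at 1368 and 1401 CPM in CCl4 and 1802 and 1863 CPM in control (-0.41, SE 0.0826, adjusted p = 0.0217). Hspa5, which encodes BiP, the main HSP70 of the ER, was at 2486 and 2476 CPM in CCl4 and 3244 and 3098 CPM in control (-0.36, SE 0.0762, adjusted p = 0.0345). The groups did not overlap for any of the 6 genes, as for 18.9% of all tested genes with CCl4 lower. Dnajc3, Pdia6, Hsp90b1 and Hspa5 missed the threshold with a replicate block, and the last 3 also with Gdf10 left out of sum C. Pdia6 and Hsp90b1 missed it in clusters 1 and 2 alone, an alternative chosen after seeing the data.

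Other members of the list did not pass. Dnajb11 had a log2 ratio of -0.66 (edgeR adjusted p = 0.0672), Xbp1, the gene of a main factor of the ER stress response, -0.39 (adjusted p = 0.321), Calr -0.32 (adjusted p = 0.302) and Canx -0.28 (adjusted p = 0.432). Atf4 itself was at 620 and 555 CPM in CCl4 and 583 and 587 CPM in control, and Ddit3, a target of Atf4 that promotes cell death, at 88.0 and 96.7 CPM in CCl4 and 90.6 and 89.8 CPM in control. Without CCl4 library 1, Dnajc3, Pdia6, Hsp90b1 and Hspa5 kept their sign but missed the threshold (adjusted p = 0.176, 0.259, 0.14 and 0.133), and without CCl4 library 2 Hsp90b1 and Hspa5 did (adjusted p = 0.0751 and 0.151). Creld2 and Manf were called without any 1 library.

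The same 6 genes were lower in CCl4 in the other fibroblast classes too. In Adamdec1 fibroblasts the log2 ratios were -1.07 for Creld2, -0.997 for Manf, -0.58 for Dnajc3, -0.73 for Pdia6, -0.58 for Hsp90b1 and -0.44 for Hspa5, all called by edgeR (largest adjusted p = 0.0114), where 0.664% of 13099 tested genes were called, 0.496% higher and 0.168% lower. In Pi16 fibroblasts they were -0.68, -0.65, -0.52, -0.31, -0.32 and -0.27 in the same order, and Manf was called (adjusted p = 0.0265), where 0.161% of 11199 tested genes were called, 0.125% higher and 0.0357% lower. The difference in effect between the members and either class was not called for any of the 6. Creld2 was lower in CCl4 within clusters too. It was at 66.9 and 84.0 CPM in CCl4 cells of cluster 1, against 159 and 161 CPM in control cells, and at 35.3 and 38.9 CPM in CCl4 cells of cluster 3, against 127 and 141 CPM in control cells.

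**Figure D5:**
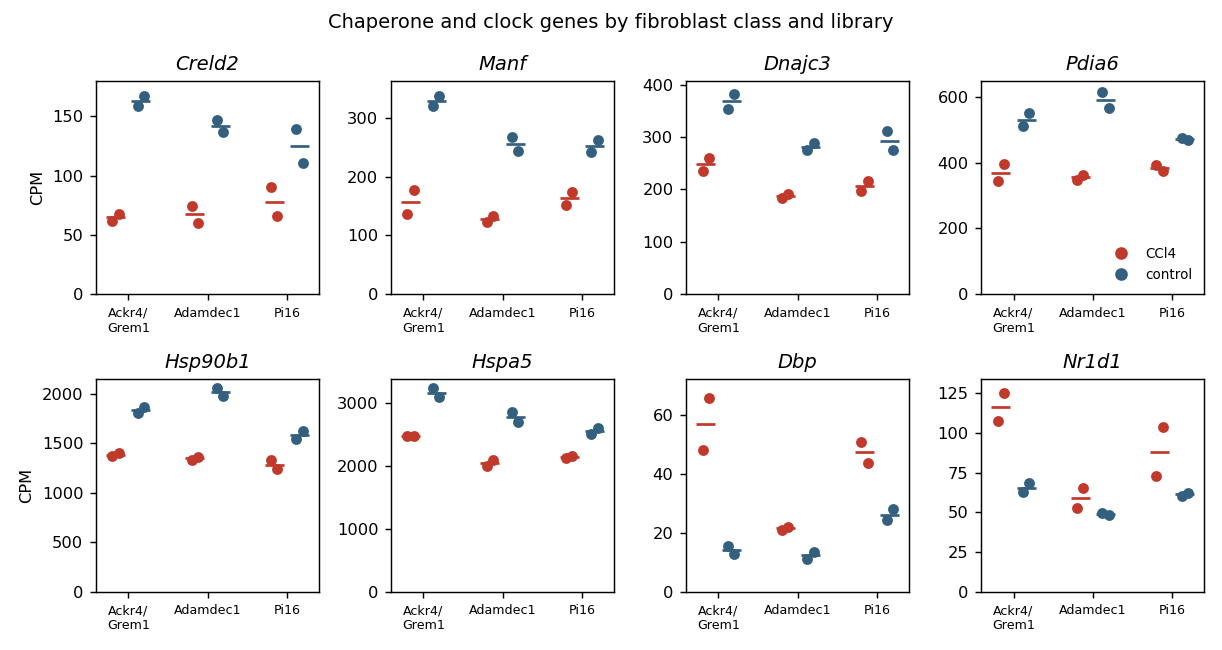
CPM of 6 chaperone genes and 2 clock genes in 3 fibroblast classes, with 1 point per library, bars at the means of 2 libraries and y axes from 0. CCl4 libraries lie below control libraries for all 6 chaperone genes in each class, and above them for Dbp, which stands at 48.1 and 65.8 CPM in CCl4 Ackr4/Grem1 cells against 15.6 and 13.0 CPM in control.

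Promoter windows of the chaperone list were searched for the ER stress response element, the site through which ATF6 acts with NF-Y in mammals. The element was searched on both strands as CCAAT, then 9 bases of any kind, then CCACG in RefSeq promoter windows of build GRCm38.p6, from 250 bases before to 50 after each start. It was present in 39 of 32851 windows (0.119%). Of the 26 listed genes, 24 had a window, and 7 held the element: Calr, Canx, Creld2, Dnajc3, Hsp90b1, Hspa5 and Pdia6. Of the 6 genes that fell, Manf had no entry and each of the other 5 held at least 1 copy. The 250 bases before the start of these 5 are shown because they share the element, which is in capitals (5′ to 3′ along the gene), and a match of letters does not show binding. The E-box CACGTG, the letters that clock activators bind, was searched in the same way for the clock genes described below. It was in 2349 of 32851 windows (7.15%) and in 5 of the 16 clock genes with a window, Bhlhe41, Ciart, Cry1, Per1 and Tef. It was in neither of the 2 clock genes that were called, Dbp and Nr1d1, and this says only that the letters are not in these windows.
Creld2 (chr15:88819396-88819645, plus strand): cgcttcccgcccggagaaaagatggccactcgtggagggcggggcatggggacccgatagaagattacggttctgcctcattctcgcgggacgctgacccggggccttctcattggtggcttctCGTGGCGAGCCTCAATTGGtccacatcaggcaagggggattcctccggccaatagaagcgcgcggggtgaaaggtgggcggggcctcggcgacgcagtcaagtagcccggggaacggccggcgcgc
Dnajc3 (chr14:118937682-118937931, plus strand): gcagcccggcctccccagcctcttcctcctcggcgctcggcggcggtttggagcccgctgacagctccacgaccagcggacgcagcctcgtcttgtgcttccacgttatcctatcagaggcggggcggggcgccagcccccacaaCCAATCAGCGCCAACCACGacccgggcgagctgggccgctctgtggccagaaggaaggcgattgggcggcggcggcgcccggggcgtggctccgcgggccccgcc
Pdia6 (chr12:17266339-17266588, plus strand): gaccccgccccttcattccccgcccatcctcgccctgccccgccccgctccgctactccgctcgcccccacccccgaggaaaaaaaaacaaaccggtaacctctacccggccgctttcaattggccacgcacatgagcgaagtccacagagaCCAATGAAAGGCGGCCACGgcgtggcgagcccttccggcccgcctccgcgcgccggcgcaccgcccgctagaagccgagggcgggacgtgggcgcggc
Hsp90b1 (chr10:86705445-86705694, minus strand): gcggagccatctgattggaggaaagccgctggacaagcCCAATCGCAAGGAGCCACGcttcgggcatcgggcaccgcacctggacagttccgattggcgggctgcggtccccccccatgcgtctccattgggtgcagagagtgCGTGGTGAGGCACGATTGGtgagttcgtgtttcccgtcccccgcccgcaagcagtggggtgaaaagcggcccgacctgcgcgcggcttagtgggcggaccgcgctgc
Hspa5 (chr2:34771840-34772089, plus strand): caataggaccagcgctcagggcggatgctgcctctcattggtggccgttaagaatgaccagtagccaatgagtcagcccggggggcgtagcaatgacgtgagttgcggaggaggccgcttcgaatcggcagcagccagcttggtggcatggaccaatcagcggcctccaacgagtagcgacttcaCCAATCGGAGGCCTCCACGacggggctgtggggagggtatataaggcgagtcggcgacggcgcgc
The first base of the element lay 126 bases before the start in Creld2, 105 in Dnajc3, 98 in Pdia6 and 65 in Hspa5, and 212 and 107 in the 2 copies of Hsp90b1. It read on the reverse strand in Creld2 and in the second copy of Hsp90b1.

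The clock genes Dbp and Nr1d1 rose in CCl4 members. Dbp, a transcription factor gene driven directly by the clock, was at 48.1 and 65.8 CPM in CCl4 members, against 15.6 and 13.0 CPM in control members (log2 ratio 1.98, SE 0.244, edgeR adjusted p = 7.07e-05). Dbp lies on chromosome 7 (GRCm38, 45705088 to 45710203, plus strand). Nr1d1, which encodes the clock repressor REV-ERB alpha, was at 108 and 125 CPM in CCl4, against 62.9 and 68.3 CPM in control (0.82, SE 0.154, adjusted p = 0.0113). Neither gene's groups overlapped, as for 18% of all tested genes with CCl4 higher. Of 18 tested clock genes 2 were called higher and 0 lower, beside 0.274% of all genes called higher, and the list's median was 0.25. Of its other members, Tef had a log2 ratio of 0.74 (adjusted p = 0.302), Per1 0.49 (adjusted p = 0.44) and Arntl, the gene of the clock activator BMAL1, -0.52 (adjusted p = 0.538). Per2 was level, at 9.62 and 9.21 CPM in CCl4 and 8.99 and 9.91 CPM in control. Nr1d1 missed the threshold with a replicate block, while Dbp was still called with it. Without CCl4 library 2, Nr1d1 missed the threshold (adjusted p = 0.0517). In Adamdec1 and Pi16 fibroblasts Dbp had log2 ratios of 0.81 and 0.84 (edgeR adjusted p = 0.242 and 0.376), and its difference in effect from the members was not called (adjusted p = 0.457 and 0.867). The clock list's median was 0.20 in Adamdec1 and 0.15 in Pi16 fibroblasts. Of its 18 tested genes 1 was called higher in Adamdec1 fibroblasts, beside 0.496% of all genes there. In Pi16 fibroblasts 0 were, beside 0.125% of all genes.

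A small set of genes that fibroblasts express rose. Apod, which encodes a lipid-binding lipocalin, was at 615 and 498 CPM in CCl4 members, against 324 and 247 CPM in control members (log2 ratio 0.96, SE 0.132, edgeR adjusted p = 2.56e-04). Cluster 3 held 1150 of 1280 and 574 of 757 Apod counts in CCl4 members, against 634 of 938 and 465 of 724 in control members. Apod was at 2900 and 2030.3 CPM in CCl4 cells of that cluster against 1680.1 and 1075 CPM in control cells. In cluster 1 it was at 91.0 and 189 CPM in CCl4 and 123 and 115 CPM in control. Cluster 3, like clusters 4 and 5, held a larger share of the CCl4 members. In clusters 1 and 2 alone Apod had a log2 ratio of -0.09 (adjusted p = 0.97, an alternative chosen after seeing the data), and with Gdf10 left out of the sum that chose the members it had 0.38 (adjusted p = 0.367). By DESeq2 Apod missed the threshold (adjusted p = 0.0656).

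Thbs1, which encodes the matricellular protein thrombospondin 1, was at 603 and 578 CPM in CCl4 and 382 and 444 CPM in control (log2 ratio 0.52, SE 0.105, edgeR adjusted p = 0.0217). Igfbp7, a secreted binding protein of growth factors, was at 2317 and 2501 CPM in CCl4 and 1891 and 1804 CPM in control (0.38, SE 0.0812, adjusted p = 0.0333). Fosb, an immediate early gene, was at 652 and 627 CPM in CCl4 and 433 and 459 CPM in control (0.52, SE 0.0999, adjusted p = 0.0138). These 3 genes did not overlap between groups, as for 18% of all tested genes with CCl4 higher, and each missed the threshold without CCl4 library 1 (adjusted p = 0.176 for Thbs1, 0.0681 for Igfbp7 and 0.135 for Fosb). Thbs1 also missed it without control library 1 (adjusted p = 0.0664) and Igfbp7 without CCl4 library 2 (adjusted p = 0.193). Ctla2a, which encodes an inhibitor of cysteine proteases, was at 27.4 and 31.6 CPM in CCl4 and 5.88 and 8.54 CPM in control (2.02, SE 0.342, adjusted p = 0.004). Ctla2a was among the leading genes of cluster 3. With a replicate block Thbs1, Igfbp7, Fosb and Ctla2a missed the threshold. Thbs1, Igfbp7 and Fosb missed it in clusters 1 and 2 alone, an alternative chosen after seeing the data. With Gdf10 left out of sum C, Thbs1 and Igfbp7 missed it too. Hbegf, the gene of a ligand of the EGF receptor, and Cdon, the gene of a hedgehog coreceptor, were also called and are named after their values were seen. Hbegf was at 214 and 170 CPM in CCl4 and 114 and 125 CPM in control (0.69, adjusted p = 0.0179), and Cdon, another leading gene of cluster 3, at 53.4 and 59.9 CPM in CCl4 and 24.9 and 29.7 CPM in control (1.05, adjusted p = 0.0179).

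Of 23 tested matrix proteases and inhibitors Mmp3 alone was called, as lower, beside 0.103% of all genes called lower. Of the 23, 12 had a log2 ratio below 0 and 11 above. Mmp3, the gene of stromelysin 1, was at 67.3 and 69.8 CPM in CCl4 members and 138 and 111 CPM in control members (log2 ratio -0.86, SE 0.161, edgeR adjusted p = 0.0106). Within cluster 3 it was at 131 and 163 CPM in CCl4 and 408 and 199 CPM in control. Mmp3 missed the threshold with a replicate block and in clusters 1 and 2 alone, an alternative chosen after seeing the data. Without control library 1 it missed the threshold (log2 ratio -0.68, adjusted p = 0.0826). Of 47 matricellular and matrix genes tested, Thbs1 alone was called, as higher, beside 0.274% of all genes called higher. Of 20 collagen genes none was called, with a median log2 ratio of 0.09. Col1a1 was at 1069 and 994 CPM in CCl4 and 864 and 978 CPM in control, and Col3a1 at 4667 and 5207 CPM in CCl4 and 4454 and 4252 CPM in control, as values of rule genes with no test.

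Genes of signals to the crypt did not pass the test in either direction. Of 10 tested Wnt and R-spondin genes, of 3 tested Wnt inhibitors, of 11 BMP and TGF beta ligands and of 9 of their targets, none was called by edgeR. Of the 10 Wnt and R-spondin genes 8 had a log2 ratio above 0, with a median of 0.47 beside -0.00401 for all genes, and the list's median was 0.05 in Adamdec1 and -0.07 in Pi16 fibroblasts. The lowest ratio was -0.43 and the highest 0.89, for Wnt2 (SE 0.709, adjusted p = 0.862). The 2 below 0 were Rspo3 and Wnt2b. Rspo3 was at 59.6 and 80.9 CPM in CCl4 members and 69.8 and 83.0 CPM in control members (log2 ratio -0.14, SE 0.176). Wnt2b was at 14.9 and 19.7 CPM in CCl4 and 20.4 and 25.6 CPM in control (-0.43, SE 0.3), and Wnt5a at 57.2 and 65.8 CPM in CCl4 and 44.6 and 41.3 CPM in control (0.51, SE 0.188, adjusted p = 0.419). Wnt9a was at 37.5 and 34.2 CPM in CCl4 and 20.1 and 32.5 CPM in control (0.46, adjusted p = 0.716). Sfrp1 was at 926 and 1010.1 CPM in CCl4 and 901 and 998 CPM in control (0.03, SE 0.0929). Among BMP targets, Id3 was at 476 and 424 CPM in CCl4 and 398 and 363 CPM in control (0.24, adjusted p = 0.604). A p above the threshold does not show that these levels were equal.

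Of 14 tested chemokine genes 1 was called higher and 0 lower, beside 0.274% of all genes called higher and 0.103% called lower. Their log2 ratios ran from -0.83 (Cxcl16, adjusted p = 0.302) to 1.51 (Ccl4, adjusted p = 0.711), 11 were above 0, and the median was 0.30 beside -0.00401 for all genes. Cxcl1, a neutrophil attractant, was at 458 and 367 CPM in CCl4 members and 299 and 265 CPM in control members (log2 ratio 0.55, SE 0.122, edgeR adjusted p = 0.0457), and was the one called. It missed the threshold without CCl4 library 1 (0.36, adjusted p = 0.538) and without control library 2 (adjusted p = 0.0791). Cxcl1 also missed it with a replicate block, with stricter cell filters and with Gdf10 left out of sum C. The same held in clusters 1 and 2 alone, an alternative chosen after seeing the data. Cxcl12, which draws lymphocytes and progenitors, was at 421 and 439 CPM in CCl4 and 516 and 628 CPM in control (-0.41, adjusted p = 0.128). Ccl2, Ccl7 and Ccl11, attractants of monocytes and eosinophils, had log2 ratios of 0.14, 0.18 and 0.08. Ackr3, another scavenging receptor gene, was at 210 and 207 CPM in CCl4 and 195 and 156 CPM in control (0.25, adjusted p = 0.704). The cytokine gene Il6 was at 85.6 and 61.9 CPM in CCl4 and 55.7 and 36.9 CPM in control (0.69, adjusted p = 0.28).

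Genes of antigen presentation leaned lower without a call. Of 17 tested genes of major histocompatibility complex class I and the immunoproteasome, 16 had a log2 ratio below 0, with a median of -0.28, and none was called by edgeR. H2-K1 was at 343 and 459 CPM in CCl4 members and 523 and 509 CPM in control members (-0.37, adjusted p = 0.302). In Adamdec1 fibroblasts H2-K1 was at 473 and 530 CPM in CCl4 and 716 and 670 CPM in control (-0.46, adjusted p = 0.0284), and its difference in effect from the members was not called (adjusted p = 0.961). Of 15 tested complement genes none was called. C3 was at 2948 and 2326 CPM in CCl4 and 3010 and 3123 CPM in control (-0.22, adjusted p = 0.548).

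Markers of epithelial cells were among the genes that rose in the members. Of 14 tested markers of epithelium 6 were called higher, beside 0.274% of all genes. All 14 had a log2 ratio above 0, with a median of 0.93. The 15 listed markers summed to 797 and 761 CPM in CCl4 members and 352 and 427 CPM in control members, with Epcam at 0 by the rule. Muc2, the gene of the main intestinal mucin, was at 121 and 114 CPM in CCl4 and 36.0 and 39.96 CPM in control (1.63, SE 0.165, edgeR adjusted p = 1.55e-05). In all cells of the libraries together Muc2 was at 1027 and 899.7 CPM in CCl4 and 542 and 636 CPM in control. In Adamdec1 and Pi16 fibroblasts it had log2 ratios of 1.60 and 1.97, both called by edgeR (adjusted p = 1.08e-05 and 3.58e-04), and a difference in effect from the members was not called (adjusted p = 0.993 and 0.978).

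Other called genes, which stand on no fixed list of epithelial genes except the keratins, Cldn7 and Lgals4, also rose. Sycn, which encodes the secretory granule protein syncollin, rose by a log2 ratio of 2.56, and the goblet and secretory cell genes Klk1, Oit1, Spink4 and Agr2 by 1.96, 1.67, 1.63 and 1.51. The mucin gene Muc13 rose by 1.64, the keratin genes Krt18, Krt19 and Krt8 by 1.58, 1.10 and 0.999, Tspan1 and Dmbt1 by 1.31 each, the claudin gene Cldn7 by 1.06 and the lectin gene Lgals4 by 0.84. Of these, Cldn7 missed the threshold without control library 1 or without CCl4 library 2 (adjusted p = 0.0541 and 0.0751), Dmbt1 without control library 2 (adjusted p = 0.0791), and Krt19 without control library 1 or CCl4 library 1 (adjusted p = 0.0621 and 0.113). By DESeq2 Cldn7, Dmbt1 and Krt19 missed it as well. Muc13, Krt18, Agr2, Dmbt1, Tspan1, Cldn7 and Krt19 missed it with a replicate block. In clusters 1 and 2 alone, an alternative chosen after seeing the data, Muc13, Krt18, Cldn7 and Krt19 missed it. Krt19 also missed it with Gdf10 left out of sum C. The share of cells with Epcam moved with the rises of this paragraph, as given above, and its part in them was not tested.

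Immunoglobulin transcripts were lower in CCl4 members. Iglc3, a lambda light chain constant gene, was at 9.62 and 7.90 CPM in CCl4 and 35.3 and 41.7 CPM in control (log2 ratio -2.11, SE 0.294, edgeR adjusted p = 3.17e-04). Jchain, which links the units of secreted IgA, was at 241 and 49.4 CPM in CCl4 and 715 and 539.7 CPM in control (-2.06, SE 0.319, adjusted p = 0.00125). Ly6c2 was at 10.6 and 1.97 CPM in CCl4 and 56.4 and 39.3 CPM in control (-2.80, SE 0.373, adjusted p = 2.29e-04). By DESeq2 Jchain and Ly6c2 missed the threshold (adjusted p = 0.9996 and 0.504). Ly6c2 also missed it with doublets removed. Iglc3 was the leading gene of cluster 2, which held a smaller share of the CCl4 members. Without the 38 cells of cluster 6, an alternative chosen after seeing the data, Iglc3 stood at -2.13, Jchain at -1.22 (adjusted p = 3.25e-04) and Ly6c2 at -0.44 (adjusted p = 0.953). Jchain stood at -3.69 without CCl4 library 1 and -1.37 without CCl4 library 2, and Ly6c2 at -4.58 without CCl4 library 1. In all cells of the libraries Jchain was at 3319.8 and 3161 CPM in CCl4 and 11038 and 10970.4 CPM in control. Of 10 tested immune markers 5 had a log2 ratio above 0 and 5 below. The 2 called were Jchain and Iglc3, both lower, beside 0.103% of all genes called lower. The 15 listed immune markers summed to 3515 and 515 CPM in CCl4 members and 7274 and 4666 CPM in control members, with Ptprc at 0 by the rule. Their part in the result was not tested.

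Of the 44 genes called in the members, 22 were also called in Adamdec1 fibroblasts, which is 50% of the 44 and 25.3% of the 87 called there. With Pi16 fibroblasts 14 were shared, which is 31.8% of the 44 and 77.8% of the 18 called there. A direct test of the difference in the CCl4 effect called 18 of 13620 genes between the members and Adamdec1 fibroblasts (0.132%), 11 with a higher effect in the members (0.0808%) and 7 with a lower one (0.0514%). It called 2 of 12165 between the members and Pi16 fibroblasts (0.0164%), 1 higher (0.00822%) and 1 lower (0.00822%). The higher one was Emb. The lower one was on the list of crypt niche antagonists, which holds 1 gene that chose the members, so nothing is read from it. At an unadjusted p under 0.05 there were 835 and 579 genes. So for most genes called in 1 class a difference between classes was not shown.

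Among the called differences from Adamdec1 fibroblasts, the haemoglobin genes changed mainly in those cells. Angptl4 stood lower in CCl4 members and higher in CCl4 Adamdec1 fibroblasts than in control, but was not called in either class alone. The haemoglobin gene Hbb-bs was at 30.3 and 10.5 CPM in CCl4 members and 28.4 and 7.51 CPM in control members, while Adamdec1 fibroblasts had 472 and 391.7 CPM in CCl4 and 9.06 and 10.8 CPM in control. Its effect in the members minus that in Adamdec1 fibroblasts was -5.14 (edgeR adjusted p = 1.84e-10), and Hba-a1, Hba-a2 and Hbb-bt showed the same pattern. Angptl4, which encodes an inhibitor of lipoprotein lipase, was at 18.8 and 14.5 CPM in CCl4 members and 32.8 and 36.9 CPM in control members. In Adamdec1 fibroblasts Angptl4 was at 111 and 111 CPM in CCl4 and 91.5 and 84.4 CPM in control, and the difference was -1.39 (adjusted p = 0.0103).

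Igfbp5, a binding protein of insulin-like growth factors, was at 86.6 and 159 CPM in CCl4 members and 70.5 and 89.2 CPM in control members, while it fell in Adamdec1 fibroblasts, at 384 and 306 CPM in CCl4 and 584 and 631 CPM in control. The difference was 1.39 (edgeR adjusted p = 8.41e-05). Myoc, which encodes the secreted protein myocilin and was a leading gene of cluster 3, was at 107 and 328 CPM in CCl4 members. In control members it was at 100.3 and 95.3 CPM, so among the members the higher level was that of CCl4 library 2. In Adamdec1 fibroblasts Myoc was at 2.71 and 2.29 CPM in CCl4 and 12.3 and 8.38 CPM in control. In cluster 3 Myoc was at 333 and 1348 CPM in CCl4 and 360.4 and 247 CPM in control. For the rule genes, which are given with no test, Grem1 in Pi16 fibroblasts was at 134 and 134 CPM in CCl4 and 75.9 and 109 CPM in control, the opposite order to that in the members.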

How the data were processed

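Per the labels' protocols, a tissue dissociation kit gave cell suspensions of colon and polyadenylated RNA was captured in droplets. The authors deposited a matrix of whole counts per gene and cell barcode for each library. Per the submitters' processing notes the genome build was GRCm38 and PISA v0.12b was among the tools, and for the aligner and the cell calling, these are not given in the sources used here. In the deposited files, the lowest barcode total was 1001 counts, so shallower barcodes were not seen. The 4 libraries held 92383719 and 74643979 counts in CCl4 and 55834301 and 58667918 counts in control.

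Cells were filtered and classed as the report states, and deposited counts were summed per library and class. Sums were tested with edgeR 4.0.16 (TMM scaling, quasi-likelihood test, Benjamini-Hochberg adjustment at 0.05, R 4.3.3), CCl4 against control, and as an interaction with class, with the library shared by both classes. Shares were tested with an exact permutation test. Intervals cover counting error only. Clustering used scanpy 1.11.5. No doublet caller was applied to the main result, and removing the top 6% of cells by Scrublet score was an alternative. On data simulated for the CCl4 comparison (11650 genes), 57 of 100 genes changed 2-fold and 93 of 100 changed 4-fold were recovered, with 5 false calls. For the difference from Adamdec1 fibroblasts (13433 genes) these were 21 and 82 of 100, with 6 false calls. The simulation gave every gene the same spread between libraries, changed only genes above a floor of counts and drew the 2 classes independently. Its rates may therefore not hold for genes of few counts, for genes carried by few cells or for classes that share libraries.

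Genes are named where called at a mean of at least 20 CPM, as the 12 largest rises and 12 largest falls or as members of 39 gene lists, leaving out predicted, ribosomal, mitochondrial, immunoglobulin segment and rule genes. The members and lists were chosen with earlier results of these data known. Alternatives were DESeq2 1.42.0, its size factors, no filter on low counts, a replicate block, each library left out, doublets removed, stricter cell filters and other forms of the rule.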

Additional observations from a re-analysis of the deposited data

Results flagged for a closer look

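The effect of CCl4 in the members differed from that in another fibroblast class, by edgeR's test of the difference itself, for 11 named genes. Values are the log2 effect in the members minus that in the other class. Against Adamdec1 fibroblasts, the haemoglobin genes Hbb-bs, Hba-a1, Hbb-bt and Hba-a2 stood at -5.14, -4.67, -4.47 and -4.17 (adjusted p = 1.84e-10, 2.05e-09, 0.0042 and 4.57e-08). Hbb-bs was at 391 and 215 CPM in all cells of the CCl4 libraries and 18.0 and 70.9 CPM in all cells of the control libraries. Without control library 2, Hbb-bt missed the threshold (-3.82, adjusted p = 0.392).

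Angptl4 stood at -1.39 (adjusted p = 0.0103), and missed the threshold without CCl4 library 2 (adjusted p = 0.0983) or with doublets removed (adjusted p = 0.0749). Igfbp5 stood at 1.39 (adjusted p = 8.41e-05), Myoc at 3.06 (adjusted p = 2.25e-05) and Cxcl1 at 0.54 (adjusted p = 0.0389). Cxcl2, a leading gene of cluster 6, stood at 3.29 (edgeR adjusted p = 3.43e-06). It was at 34.6 and 132 CPM in CCl4 members and 13.8 and 69.7 CPM in control members, which overlap. In Adamdec1 fibroblasts it was at 18.5 and 15.4 CPM in CCl4 and 16.7 and 202 CPM in control. With doublets removed Cxcl2 missed the threshold (edgeR adjusted p = 0.086). Mptx1 stood at 2.72 (adjusted p = 7.87e-05), where 1 Adamdec1 control library was at 157 CPM and the other at 26.0 CPM. It stood at 1.497 (adjusted p = 0.245) without control library 1 and at 1.05 (adjusted p = 0.613) with doublets removed.

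Against Pi16 fibroblasts, Emb, another leading gene of cluster 6, stood at 3.71 (adjusted p = 0.0218). It was at 49.5 and 16.5 CPM in CCl4 members and 6.92 and 18.1 CPM in control members, which overlap. It missed the threshold without CCl4 library 1 (2.41, adjusted p = 0.3) and with doublets removed (1.28, adjusted p = 0.961).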

How the results depend on the processing

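The count of 44 called genes moved to 92 with no filter on low counts, 27 with Gdf10 left out of sum C, and 0 of 591 tested genes (44 at an unadjusted p under 0.05) in the 74 cells with sums A and B both 0. It lay between 51 and 103 with 1 library left out, where the lone library of a group is assumed to vary like the other group, with 90 and 103 calls without control library 1 and control library 2 and 66 without CCl4 library 2. DESeq2 called 37, of which 34 were among the 44. The count of 18 differences from Adamdec1 fibroblasts moved to 39 with no filter and lay between 29 and 43 with 1 library left out. The 2 differences from Pi16 fibroblasts moved to 7 with no filter and 1 with doublets removed, and lay between 4 and 20 with 1 library left out. Library numbers are shared between groups, and deviations of same-numbered libraries correlated at 0.0691 over 11691 genes. Since a shared run or batch may move few genes, this cannot settle whether they pair, and the labels do not say. With a replicate block 16 genes were called (10 higher, 6 lower), 15 of them among the 44. Directions turned for Ly6c2 (0.16) and Apod (-0.091) in clusters 1 and 2 alone, an alternative chosen after seeing the data, and for Fosb (-0.28) and Igfbp7 (-0.84) with sums A and B both 0. The cause was not tested. With 2 libraries a group, no share could pass an exact test, and both share differences kept their direction under every alternative run on them.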

Other observations

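Further lists held few called genes in the members. Of 28 immediate early genes Fosb alone was called, beside 0.274% of all genes higher in the members. In Adamdec1 fibroblasts 4 rose, beside 0.496% of all genes higher there. Of 14 tested glucocorticoid targets none was called in the members and 5 rose in Adamdec1 fibroblasts, and these counts were not tested against each other. None of 34 interferon-stimulated genes, 15 cell cycle genes, 31 nuclear genes of oxidative phosphorylation, 29 detoxification genes and 10 contractile genes was called, and their median log2 ratios of CCl4 over control were 0.01, 0.14, 0.01, 0.11 and 0.33. Of 17 heat shock proteins the one called was Hspa5, already counted among the chaperones.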
